A study of Rattus norvegicus with 18 samples.

Results

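This account describes the transcripts of 10 named assembly factors of succinate dehydrogenase and cytochrome oxidase in rat fast muscle: Sdhaf1, Sdhaf2, Sdhaf3, Sdhaf4, Smim20, Cox14, Coa3, Surf1, Sco1 and Sco2. A member was counted as measured when a probe set of the array carried its gene symbol and no other. This held for 7 of the 10, out of 16856 genes measured in the same way. Surf1 lay only on a probe set shared with Surf2 and Surf4, and Sdhaf4 and Sco2 are not analysed here because the probe table used lists neither. Sdhaf1 and Smim20 were selected on their intensities in these same animals, for being higher with the grandpaternal high-fat diet. Their differences with that diet are therefore given as descriptions, with no test. The other 5 measured members were listed for their function.

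The RNA came from the extensor digitorum longus (EDL), a fast-contracting hindlimb muscle, of 18 adult female Sprague-Dawley rats, with 1 Affymetrix whole-transcript array per animal. All were second-generation (F2) descendants of founder (F0) males kept on chow or a high-fat diet. Each F2 female ate chow or a diet with 42/45% of its energy from fat for 12 weeks. Each group name gives the grandfather's diet before the slash and the female's own diet after it: high-fat/high-fat (4 animals), high-fat/chow (4), chow/high-fat (5) and chow/chow (5). No genetic alteration or further agent is named in the labels. They give neither the number of founder males nor which parent linked the generations, so related animals may share a group and p-values for the grandpaternal diet may be too small.

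Succinate dehydrogenase (complex II) passes electrons from succinate to the quinone pool. It is built from a flavin-bearing subunit, an iron-sulfur subunit and membrane anchors. Dedicated proteins that are not part of the finished enzyme help to prepare the flavin-bearing and the iron-sulfur subunit. Cytochrome oxidase (complex IV) is built around the mitochondrially encoded subunit COX1. Assembly factors hold new COX1, add heme and copper, and bring in the nuclear subunits. Inherited loss of such factors in humans lowers the activity of the enzyme concerned and affects tissues with a high demand for oxidative energy, such as muscle and brain.

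The deposited intensities were used as log2(intensity + 16) after quantile normalization, and differences are on this scale unless stated. A level of a probe set is compared between animals, never with another probe set. The median deposited intensity of an array lay between 67.5 and 74.0 in high-fat/high-fat, 60.2 and 70.7 in high-fat/chow, 55.0 and 66.5 in chow/high-fat and 66.3 and 70.5 in chow/chow animals. The high-fat/high-fat arrays were thus all brighter than the chow/high-fat arrays before normalization. Of the fast-fibre markers, 5 of 8 had a probe set, and their mean level was 12.8 to 12.9 on every array, far above the filter for dim probe sets at 5.26. In bulk muscle, fewer cells of a type and less RNA per cell cannot be told apart. All 7 measured members passed the filter, which left 12749 genes for testing.

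Sdhaf1 encodes a small matrix protein of the LYR-motif family that helps to place iron-sulfur clusters in the subunit SDHB. Its gene lies on chromosome 1 of the RefSeq assembly GRCr8, from 94703662 to 94704611 on the minus strand. Its probe set (10720557) read 782.5, 821.3, 656.0 and 663.6 in deposited intensity in high-fat/high-fat animals, against 462.3, 433.1, 492.1, 362.4 and 288.5 in chow/high-fat animals. Every high-fat/high-fat animal lay above every chow/high-fat animal, as deposited and after normalization. The deposited intensities also carry the greater brightness of all high-fat/high-fat arrays. After normalization 2.37% of all genes separated in this way. Nothing is read from it for Sdhaf1, which was chosen for its grandpaternal rise. In females on chow the intensities were 384.9, 504.2, 728.7 and 593.8 in the high-fat lineage and 518.5, 571.9, 415.6, 492.9 and 363.3 in the chow lineage. These groups overlapped in deposited intensity: high-fat/chow replicate 1 was lower than 4 of the 5 chow/chow animals, and replicate 2 was lower than 2 of them. After normalization 3 of the 4 high-fat/chow animals lay above every chow/chow animal, while replicate 1, at 8.86, lay among them. On the normalized log2 scale the means were 9.41 ± 0.12 in high-fat/high-fat, 9.15 ± 0.23 in high-fat/chow, 8.83 ± 0.21 in chow/high-fat and 8.88 ± 0.20 in chow/chow animals (SD, n = 4, 4, 5 and 5). The order of the groups was therefore high-fat/high-fat, high-fat/chow, chow/chow and chow/high-fat. The means of chow/chow and chow/high-fat differed by less than their SD, and the high-fat/high-fat and high-fat/chow animals overlapped.

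The grandpaternal difference of Sdhaf1 was 0.43 log2 averaged over own diets (SE 0.085, 1.34-fold). It was 0.58 at own high-fat diet (SE 0.12) and 0.27 at own chow diet (SE 0.12). At own high-fat diet it was 0.34 when the median brightness of each array entered the model, a setting chosen after the data were seen, and 0.83 in the table as deposited. The brightness of the arrays thus moved with this difference, and its part in it was not tested. At own chow diet it was 0.18 without high-fat/chow replicate 3 and 0.36 without high-fat/chow replicate 1. Sample titles end in a code that reads like a well position, and its number is taken here as a column. The labels do not explain the code. Some codes occur for more than 1 animal, so a column may hold arrays of different plates. Within wells of column 5 the grandpaternal difference was 0.45 at own high-fat diet (1 animal against 2) and 0.29 at own chow diet (2 against 3). In column 7 it was 0.50 (1 against 3) and 0.10 (1 against 1), and in column 9 it was 0.51 at own chow diet (1 against 1).

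Smim20 encodes a short inner-membrane protein, also called MITRAC7, that binds newly made COX1 in an assembly intermediate. The same precursor is known as the source of the signalling peptide phoenixin. The gene lies on chromosome 14 of GRCr8, from 61924155 to 61935630 on the minus strand. Its probe set (10777034) read 1205.3, 1243.0, 1131.0 and 1172.9 in deposited intensity in high-fat/high-fat animals. It read 786.5, 872.4, 756.5, 692.6 and 616.2 in chow/high-fat animals. All high-fat/high-fat animals lay above all chow/high-fat animals, as deposited and after normalization. As for Sdhaf1, the deposited values also carry array brightness, and nothing is read from the separation. With own chow diet the probe set read 617.8, 1033.6, 1282.4 and 1155.7 in the high-fat lineage and 766.5, 947.1, 827.3, 858.9 and 785.4 in the chow lineage. Again high-fat/chow replicate 1 stood apart from its group, here below every chow/chow animal, while the other 3 lay above them all.

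After normalization Smim20 averaged 10.13 ± 0.03 in high-fat/high-fat, 10.01 ± 0.32 in high-fat/chow, 9.67 ± 0.08 in chow/high-fat and 9.69 ± 0.05 in chow/chow animals (SD, n = 4, 4, 5 and 5). Within each lineage the means of the 2 own diets differed by less than the larger of their SDs. The high-fat/chow SD rests on its replicate 1 at 9.54, with the other 3 animals between 10.07 and 10.22. The grandpaternal difference averaged 0.38 log2 (SE 0.071, 1.31-fold), being 0.45 at own high-fat diet (SE 0.10, 1.37-fold) and 0.31 at own chow diet (SE 0.10, 1.24-fold). At own high-fat diet it was 0.33 when the median brightness of each array entered the model, a setting chosen after the data were seen. In the table as deposited it was 0.67 at own high-fat diet, and the part of array brightness was not tested. The difference at own chow diet was 0.47 without high-fat/chow replicate 1 and 0.24 without high-fat/chow replicate 3. Within well column 5 the differences were 0.45 at own high-fat diet and 0.53 at own chow diet. In column 7 they were 0.47 and -0.19, the last being high-fat/chow replicate 1 against 1 chow/chow animal, and in column 9 the difference at own chow diet was 0.38.

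**Figure D1:**
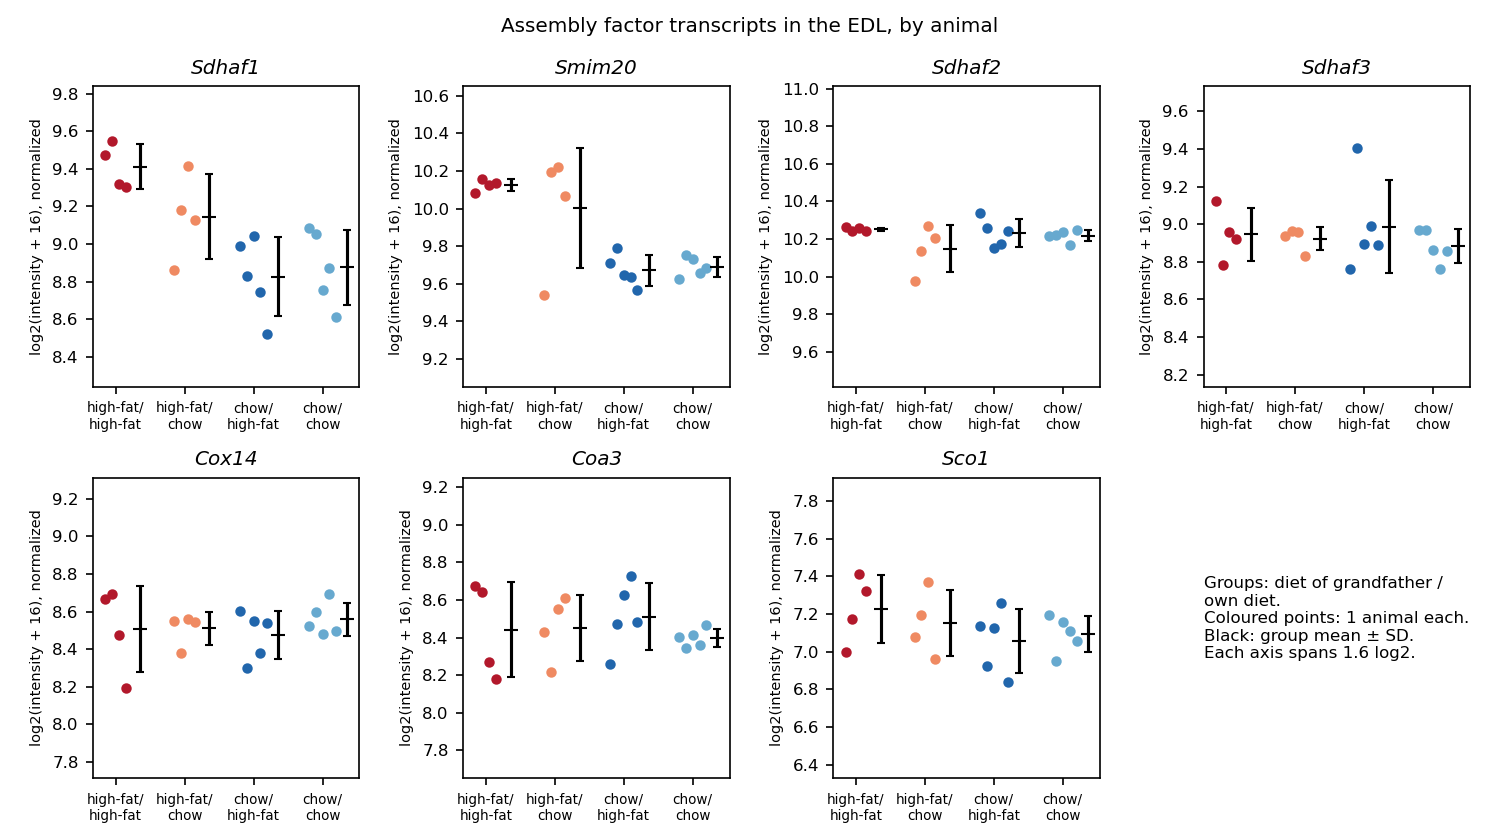
Normalized log2(intensity + 16) of the 7 measured members, 1 panel each, with groups named by grandfather's diet and own diet along the x axis, a coloured point for each animal and a black mark for the group mean ± SD. The high-fat/high-fat animals of Sdhaf1 (9.30 to 9.55) and Smim20 (10.08 to 10.16) lie above every chow/high-fat animal, while the groups of the other members overlap. Sdhaf1 and Smim20 were chosen for their grandpaternal rise.

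Across all 12749 genes, limma called 25 in the averaged grandpaternal comparison (0.196% of those tested) at an adjusted p under 0.05. Of these 20 (0.157%) were higher and 5 (0.0392%) lower in the high-fat lineage, and 1862 genes (14.6%) had an unadjusted p under 0.05. The count was 306 without high-fat/chow replicate 1 and 0 in 12 of the 18 fits that left out 1 array. It was also 0 with the well column as a block and 0 with neighbouring animal numbers as a random block. Sdhaf1 and Smim20 were among the 20 higher genes, and nothing is read from that, because they were chosen for it. Neither was called in 7 of 11 other settings, the blocked fits among them, and with 1 array left out Sdhaf1 was called in 1 of 18 fits and Smim20 in 3 of 18. None of the other 5 measured members was among the 25. At own chow diet limma called 1 gene (0.00784%) and at own high-fat diet 0 (0%), and no member was called. An unadjusted p under 0.05 was reached by 1112 genes (8.72%) at own chow diet and by 1688 (13.2%) at own high-fat diet. The other 5 members differed by -0.070 to 0.057 at own chow diet (limma adjusted p from 0.769 to 0.945) and by -0.070 to 0.17 at own high-fat diet (limma adjusted p from 0.484 to 0.928). After normalization, every high-fat lineage animal lay above every chow lineage animal for 2.37% of genes at own high-fat diet. At own chow diet such complete separation was found for 1.53%. The 7 members showed it in 2 cases (Sdhaf1 and Smim20) at own high-fat diet and in 0 at own chow diet. Nothing is read from the 2 cases, since these genes were chosen for their grandpaternal rise.

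The stretches before the Sdhaf1 and Smim20 transcripts are shown because these members were chosen for their grandpaternal rise, and their promoter sequences can be compared. They are taken from RefSeq on GRCr8, in lower case and 5′ to 3′ on the gene's strand, and cover the bases of the promoter window that lie outside the annotated gene. Capitals mark the GC box (GGGCGG, or CCGCCC on the other strand) and the CCAAT box (CCAAT, or ATTGG). The Sdhaf1 stretch is chr1:94704612-94704861 and the Smim20 stretch is chr14:61935631-61935782, both on the minus strand.
Sdhaf1: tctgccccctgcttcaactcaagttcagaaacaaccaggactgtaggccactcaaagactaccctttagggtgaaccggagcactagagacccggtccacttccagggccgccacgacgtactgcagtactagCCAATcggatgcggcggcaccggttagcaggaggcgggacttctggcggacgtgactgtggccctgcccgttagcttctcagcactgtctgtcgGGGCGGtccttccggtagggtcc
Smim20: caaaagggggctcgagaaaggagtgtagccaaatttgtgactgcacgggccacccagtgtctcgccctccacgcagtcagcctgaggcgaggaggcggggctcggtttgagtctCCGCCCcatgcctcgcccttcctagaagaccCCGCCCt

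In the full window of 300 bases, 250 before and 50 after the RefSeq start, Sdhaf1 held 62.7% G and C with 24 CpG and Smim20 held 65.0% with 23 CpG, against medians of 51.7% and 7 over 33469 windows of all annotated genes. The GC box was found on either strand in the windows of 8 of 9 members that had one, Cox14 being without it, and in 33.1% of all windows. The CCAAT box was found in 5 of 9 members, Sdhaf1 among them and Smim20 not, and in 37.5% of all windows. These letter strings were chosen after the sequences were read. Of the motifs of known regulators of mitochondrial genes, the ERR string TCAAGGTCA and the YY1 string AAGATGGCG were in 0 of 9 member windows, and in 0.433% and 1.73% of all windows. The GABP string CCGGAAGT was in the windows of Surf1 and Sco1 and in 3.81% of all. Both strands were searched and the strings listed do not overlap in the printed stretches. A match says only that these letters are there.

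Neither of the other 2 measured succinate dehydrogenase factors was called. Sdhaf2, the factor that attaches the flavin to the subunit SDHA, had a probe set (10728718) with normalized levels of 10.24 to 10.26 in high-fat/high-fat, 9.98 to 10.27 in high-fat/chow, 10.15 to 10.34 in chow/high-fat and 10.17 to 10.25 in chow/chow animals. Its gene lies on chromosome 1 of GRCr8, from 216564002 to 216592877. The lowest value again belonged to high-fat/chow replicate 1. Its spread within groups was the smallest among the members, with a pooled SD of 0.072 log2 against a median of 0.14 over all genes tested. Its averaged grandpaternal difference was -0.026 (SE 0.043, 95% confidence interval -0.12 to 0.065, limma adjusted p = 0.823). As deposited, all high-fat/high-fat animals lay above all chow/high-fat animals for Sdhaf2 too (1247.4 or more against 1233.6 or less). After normalization these groups overlapped, with a difference of 0.018.

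Sdhaf3, which in yeast and fly works beside the Sdhaf1 protein in the maturation of the iron-sulfur subunit, had normalized levels of 8.78 to 9.12 in high-fat/high-fat, 8.83 to 8.97 in high-fat/chow, 8.76 to 9.40 in chow/high-fat and 8.76 to 8.97 in chow/chow animals. Its gene lies on chromosome 4, from 36066963 to 36127168. Its groups overlapped throughout, and the highest value came from chow/high-fat replicate 2. The averaged grandpaternal difference was -0.0014 (SE 0.071, 95% confidence interval -0.15 to 0.15, limma adjusted p = 0.995).

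Cox14 and Coa3 encode small membrane proteins that bind COX1 while it is made and keep it in the assembly line. On GRCr8 the Cox14 gene lies on chromosome 7 (132731069 to 132733159) and the Coa3 gene on chromosome 10 (86720454 to 86721435). Cox14 (probe set 10899197) averaged 8.51 ± 0.23 in high-fat/high-fat, 8.51 ± 0.09 in high-fat/chow, 8.47 ± 0.13 in chow/high-fat and 8.56 ± 0.09 in chow/chow animals (SD, n = 4, 4, 5 and 5). Its averaged grandpaternal difference was -0.0077 (SE 0.065, 95% confidence interval -0.14 to 0.13, limma adjusted p = 0.971). Coa3 (10747617) averaged 8.44 ± 0.25 in high-fat/high-fat, 8.45 ± 0.18 in high-fat/chow, 8.51 ± 0.18 in chow/high-fat and 8.40 ± 0.05 in chow/chow animals. Its averaged difference was -0.0078 (SE 0.077, 95% confidence interval -0.17 to 0.15, limma adjusted p = 0.976). Neither differed beyond the spread within groups, and in high-fat/high-fat animals both genes were higher in replicates 1 and 2 than in replicates 3 and 4. Replicates 1 and 2 lay in well column 9 and the others in columns 5 and 7, and the part of the wells was not tested.

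Sco1 encodes a copper chaperone that serves the copper site of the subunit COX2. Its gene lies on chromosome 10, from 52243664 to 52256250. Its probe set (10734486) read, in deposited intensity, 122.3, 143.9, 158.3 and 157.6 in high-fat/high-fat and 117.1, 103.2, 122.4, 120.4 and 81.2 in chow/high-fat animals. With own chow diet it read 106.1, 119.8, 162.8 and 117.9 in the high-fat lineage and 132.6, 114.9, 125.7, 133.1 and 117.0 in the chow lineage. The groups overlapped at both own diets. The averaged grandpaternal difference was 0.11 (SE 0.071, 95% confidence interval -0.036 to 0.26, limma adjusted p = 0.473), and the difference at own high-fat diet was 0.17 (SE 0.10, limma adjusted p = 0.484). In the table as deposited the difference at own high-fat diet was 0.38 with a limma adjusted p of 0.0406, in a setting where 1680 genes were called.

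Surf1 encodes an inner-membrane protein needed for the heme-bearing COX1 stage. The probe set it shares with Surf2 and Surf4 (10843881) cannot be assigned to any of the 3 genes and was left out of the tests. It averaged 7.78 ± 0.18 in high-fat/high-fat, 7.87 ± 0.17 in high-fat/chow, 7.69 ± 0.12 in chow/high-fat and 7.68 ± 0.13 in chow/chow animals (SD, n = 4, 4, 5 and 5), with overlap between the lineages at both own diets.

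The own high-fat diet was not used to choose any member, so its test applies to all 7. In this comparison 2 of 12749 genes (0.0157%) passed with limma and 857 (6.72%) had an unadjusted p under 0.05, while 0 of the 7 members did either. Sdhaf1 differed by 0.11 (SE 0.085, 95% confidence interval -0.070 to 0.29, limma adjusted p = 0.865) and Smim20 by 0.052 (SE 0.071, 95% confidence interval -0.098 to 0.20, limma adjusted p = 0.938). Sdhaf2 differed by 0.059, Sdhaf3 by 0.063, Coa3 by 0.052, Sco1 by 0.020 and Cox14 by -0.043, with limma adjusted p-values from 0.854 to 0.979. The median of the 7 was 0.052, beside -0.003 over all genes tested. For Sdhaf1 the own-diet difference of group means was 0.27 in the high-fat lineage and -0.049 in the chow lineage, and for Smim20 it was 0.12 and -0.019. All 7 leukocyte markers had lower means on own high-fat diet (median -0.16, 0 called and 4 at an unadjusted p under 0.05). So had all 6 fibroblast markers (median -0.23, 0 called and 3 at an unadjusted p under 0.05), beside 6.72% of all genes at that level. The part of both marker sets in the values of the members was not tested.

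The interaction asks whether the own diet acted differently in the 2 lineages. No gene passed with limma (0 of 12749, 0%), and 866 (6.79%) had an unadjusted p under 0.05. For Sdhaf1 and Smim20 it is a description, since their choice may rest on the rise at either own diet: 0.31 (SE 0.17) and 0.14 (SE 0.14). When array brightness entered the model these were 0.015 for Sdhaf1 and -0.017 for Smim20, and in the table as deposited 0.63 and 0.43. Without high-fat/chow replicate 1 the value for Smim20 was -0.015. Of the other 5 members, Coa3 had the difference of largest size, -0.12 (SE 0.15, 95% confidence interval -0.45 to 0.20, limma adjusted p = 0.903), and the rest had limma adjusted p-values from 0.868 to 0.938.

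**Figure D2:**
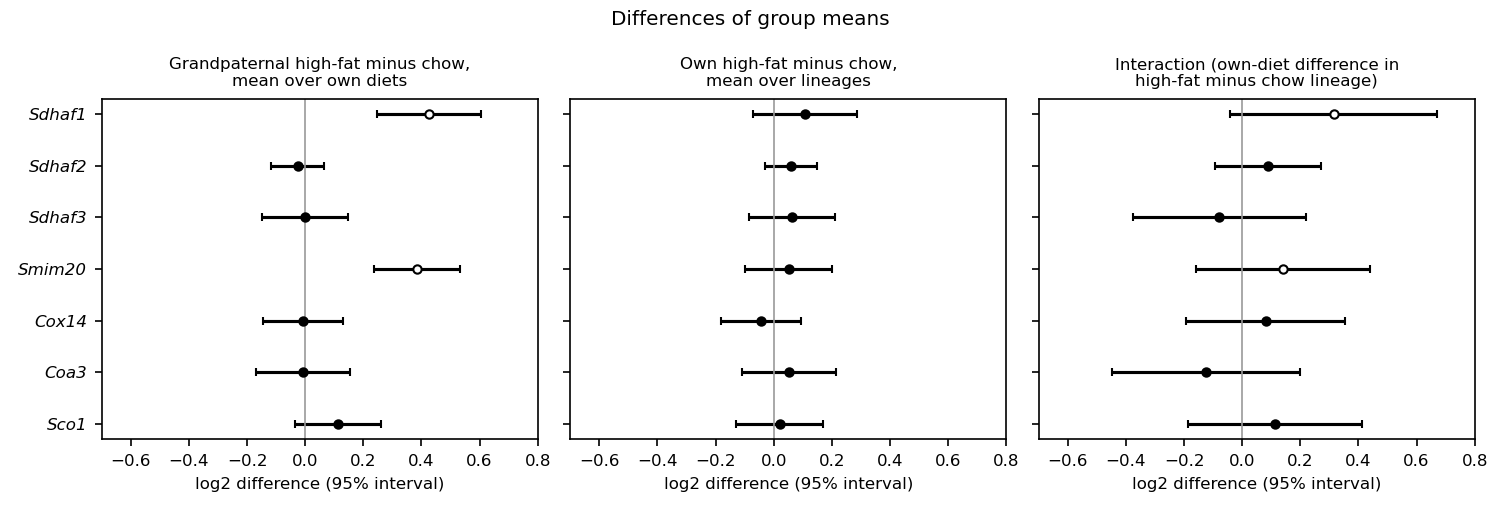
Log2 differences with 95% intervals for the 7 members in the averaged grandpaternal comparison, the averaged own-diet comparison and the interaction; open circles mark values that the choice of Sdhaf1 and Smim20 used. In the grandpaternal panel these 2 genes lie at 0.43 and 0.38 and the other 5 between -0.026 and 0.11, and every interval of the own-diet panel crosses 0.

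Whether members vary together among animals of the same group does not depend on the group means that guided the choice. After subtraction of group means, 13 of 21 pairs of members had a positive correlation over the 18 arrays, with a median r of 0.052. No pair passed after Benjamini-Hochberg adjustment over the 21 pairs (100000 two-sided permutations of animals within groups), and 1 pair had an unadjusted p under 0.05. Sdhaf1 and Smim20 gave r = 0.53 (permutation p = 0.0605, adjusted 0.635) and rho = 0.39 (permutation p = 0.152, adjusted 0.814). Without the 2 arrays farthest from the median of Sdhaf1 r was 0.23, and within well columns 5 and 7 it was 0.40 (8 arrays) and 0.55 (6 arrays). Smim20 and Sdhaf2 gave the largest r, at 0.75 (permutation p = 0.0496, adjusted 0.635), with rho = 0.49 (permutation p = 0.0911, adjusted 0.814). It fell to 0.27 without the 2 farthest arrays, so it rests on those, and within well columns 5 and 7 it was 0.57 and 0.87. In the table as deposited, where arrays also differ in brightness, all 21 pairs were positive with a median of 0.56, and 7 passed.

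**Figure D3:**
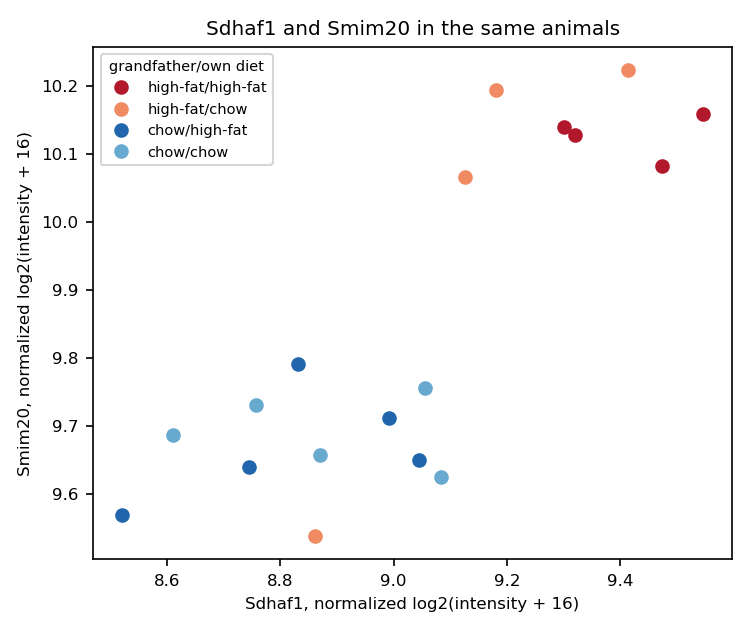
Normalized log2(intensity + 16) of Smim20 (y axis) against Sdhaf1 (x axis), 1 point per animal, coloured by group. For Smim20 the 10 chow lineage animals lie with high-fat/chow replicate 1 between 9.54 and 9.79. The other 7 high-fat lineage animals lie between 10.07 and 10.22. For Sdhaf1 the lineages overlap, at 8.86 to 9.55 in the high-fat and 8.52 to 9.08 in the chow lineage. Nothing is read from the split by lineage, since both genes were chosen for their grandpaternal rise.

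Among all genes tested, those most like Sdhaf1 by Pearson correlation over the 18 arrays were Mrpl35 (r = 0.90) and Mrpl12 (0.86), both of the mitochondrial ribosome, Atp5f1d (0.85), a subunit of ATP synthase, Lamtor4 (0.85), of the lysosomal Ragulator complex, and Pram1 (0.83). With group means removed the same genes gave 0.79, 0.69, 0.62, 0.63 and 0.59. Those most like Smim20 were Pycr3 (r = 0.95), an enzyme of proline synthesis, the RNA polymerase II subunit Polr2c (0.93), the membrane fusion adaptor Napa (0.92), the ribosomal protein Rps15 (0.90) and the ubiquitin-conjugating enzyme Ube2n (0.90). Within groups these gave 0.87, 0.86, 0.83, 0.79 and 0.76. For Smim20, high-fat/chow replicate 1 lay at -0.47 from its group mean and weighs on these values, which were not computed without it. The correlations of these most similar genes with Sdhaf1 and Smim20 are descriptions with no test, and groups that differ in level raise those over the 18 arrays.

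The proteins these factors serve were examined as lists. Of the 4 succinate dehydrogenase subunits, all measured, 2 differed in a positive and 2 in a negative direction in the averaged grandpaternal comparison, with a median of 0.023, beside -0.003 over all genes. None was called. Sdhd, a membrane anchor, differed by 0.16 (SE 0.048, limma adjusted p = 0.130), and Sdhb, the subunit that carries the iron-sulfur clusters, by -0.14 (SE 0.046, limma adjusted p = 0.151). Sdhd averaged 11.24 ± 0.12 in high-fat/high-fat and 11.17 ± 0.09 in high-fat/chow animals, against 11.04 ± 0.10 in chow/high-fat and 11.04 ± 0.04 in chow/chow animals. Sdhb averaged 11.16 ± 0.12 in high-fat/high-fat and 11.20 ± 0.04 in high-fat/chow animals, against 11.31 ± 0.09 in chow/high-fat and 11.33 ± 0.04 in chow/chow animals (SD, n = 4, 4, 5 and 5).

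Of the other 23 cytochrome oxidase assembly factors, 16 were measured and 0 called, with 11 positive and 5 negative differences and a median of 0.067. A positive difference was found for 48.8% of all genes. The smallest p-values in the list belonged to Cox17, a copper carrier (-0.20, SE 0.062, limma adjusted p = 0.143), and Cox20, a chaperone of COX2 (0.20, SE 0.061, limma adjusted p = 0.147). Of the 17 nuclear cytochrome oxidase subunits 16 were measured and 0 called, 8 in each direction, with a median of -0.003. Cox7a2 (0.19, SE 0.054, limma adjusted p = 0.126) and Cox6c (-0.13, SE 0.040, limma adjusted p = 0.154) had the smallest p-values. Of 12 genes of iron-sulfur cluster supply, the source on which the Sdhaf1 protein draws, 10 were measured and 0 called, 7 positive and 3 negative with a median of 0.029. They included the cluster carrier Isca1 (0.16, SE 0.045, limma adjusted p = 0.118) and the chaperone Hspa9 (-0.15, SE 0.064, limma adjusted p = 0.280).

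Assembly factors of other complexes gave 0 calls as well. For complex I, 15 of 17 were measured, with a median of -0.037, and the smallest p-values were those of Ndufaf2 (-0.35, SE 0.12, limma adjusted p = 0.180) and Ndufaf3 (0.15, SE 0.057, limma adjusted p = 0.236). For complex III, 3 of 6 were measured, among them Uqcc3 (-0.26, SE 0.098, limma adjusted p = 0.227) and Lyrm7 (0.044, SE 0.085, limma adjusted p = 0.845), with a median of -0.011. For ATP synthase, 5 of 5 were measured and all 5 differences were positive with a median of 0.15, as in Atpaf2 (0.22, SE 0.068, limma adjusted p = 0.143) and Atpaf1 (0.16, SE 0.055, limma adjusted p = 0.189). At an unadjusted p under 0.05, the counts were 6 of 16 other cytochrome oxidase factors (5 higher, 1 lower), 3 of 15 complex I factors (2 higher, 1 lower), 1 of 3 complex III factors (lower) and 2 of 5 ATP synthase factors (higher), beside 14.6% of all genes. They were 2 of 4 succinate dehydrogenase subunits (1 higher, 1 lower), 4 of 16 cytochrome oxidase subunits (2 higher, 2 lower) and 4 of 10 genes of iron-sulfur supply (3 higher, 1 lower). In the other 4 comparisons no gene of these 7 lists was called.

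**Figure D4:**
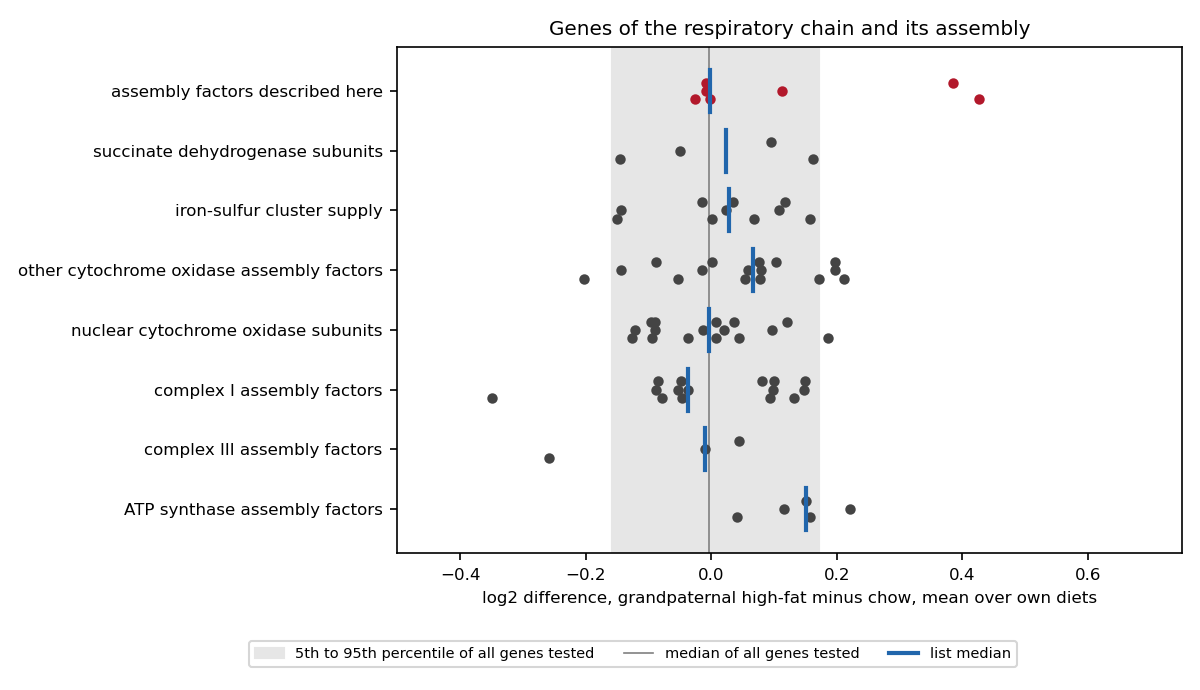
Averaged grandpaternal log2 differences (x axis) of the assembly factors described here and of 7 lists of related genes, 1 point per gene, with the list median as a blue line, the median of all genes as a grey line and their 5th to 95th percentile shaded. Sdhaf1 and Smim20 lie at 0.43 and 0.38, and the genes of the other lists run from -0.35 to 0.22. Nothing is read from this contrast, since Sdhaf1 and Smim20 were chosen for their grandpaternal rise.

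Markers of slow fibres had lower means in high-fat/chow than in chow/chow animals. This held for all 6, with a median of -1.11 log2, beside -0.002 over all genes tested. Of these markers 0 were called and 4 had an unadjusted p under 0.05, beside 8.72% of all genes. At own high-fat diet the median of the markers was -0.025. Their mean level ranged from 8.77 to 10.67 in high-fat/chow and from 9.98 to 10.98 in chow/chow animals, and from 8.68 to 10.75 in high-fat/high-fat and from 9.16 to 11.03 in chow/high-fat animals. Their part in the values of the members was not tested. Markers of fat cells (5 of 6 tested), fibroblasts (6 of 6), leukocytes (7 of 7), endothelium (3 of 5), red blood cells (3 of 4) and nerve (3 of 5) had median averaged grandpaternal differences from -0.018 to 0.11, with 0 called.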

How the data were processed

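The authors deposited 1 table with a linear intensity for each of 20917 probe sets on 18 arrays. The submitters' processing notes name Affymetrix Expression Console and PLIER as the tools, with versions not given in the sources used here. Array medians of the deposited intensity spanned 0.427 log2, beyond the limit of 0.1, so log2(intensity + 16) was quantile normalized (limma 3.58.1, R 4.3.3). Probe sets with 1 symbol (18197; 960 had several and 1760 none) were kept, 1 per gene by highest mean, above the 25th percentile, which left 12749 genes. Entrez identifiers updated 0 symbols. All arrays entered 1 limma model (lmFit, eBayes) of 4 group means, two-sided, with Benjamini-Hochberg adjustment over all genes at 0.05 in each of 5 comparisons. Confidence intervals are 95% and not adjusted. The fit was tested on simulated data.

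Arrays have no depth, and their number limits the precision. No 2 of the 32 pairs of arrays within a group were copies, since the log2 differences of a pair had an SD of at least 0.196. Members and lists were chosen with earlier results of these data known. Named are the 10 members, in each list the 2 genes of smallest p in the averaged grandpaternal comparison, and the 5 genes most like Sdhaf1 and Smim20. Other settings covered normalization, offset, filter, variance model, well column, neighbouring animal numbers and each array left out. Replicate numbers follow record order and only name an animal.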

Additional observations from a re-analysis of the deposited data

Results flagged for a closer look

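Over the 28 groups of members examined (7 members in 4 groups), 1 held an animal far from the others, and about 1 in 20 groups would be marked by chance. Cox14 stood at 8.38 in high-fat/chow replicate 2, with the nearest of the other 3 animals at 8.55 and the farthest at 8.56, so that its gap was 0.92 of the range of the group by Dixon's measure.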

How the results depend on the processing

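No paired analysis was run, because the groups share no replicate numbers in the sample titles. Neighbouring animal numbers, which the labels do not explain, entered only as a random block. No member had a further probe set to try. The averaged grandpaternal comparison called 25 genes with limma. It called 0 in the table as deposited, with an offset of 1, with the well column as a block, with neighbouring animal numbers as a random block, with arrays centred on their medians, with array brightness in the model and without the 2 dimmest arrays. It called 39 with an offset of 64, 42 with a filter at the 50th percentile and 42 with trended and robust eBayes. With 1 array left out it called 0 to 306 genes, 0 in 12 of 18 cases, and 306 without high-fat/chow replicate 1. Where it called 0 genes, 1411 to 2072 had an unadjusted p under 0.05. At own chow diet 1 gene was called, against 0 as deposited, with an offset of 1 or 64, with the well column and with the array median, and 0 to 2 with 1 array left out. At own high-fat diet 0 were called, against 1680 as deposited, 1 with an offset of 1 and 0 to 56 with 1 array left out. For the own diet 2 were called, against 4 as deposited, 0 with an offset of 1, 6 with an offset of 64, 5 with robust eBayes, 15 with the well column, 14 with neighbouring numbers, 5 with centred arrays, 0 with the array median, 0 without the 2 dimmest arrays and 0 to 14 with 1 array left out. The interaction, with 0 genes, called 1 as deposited and 0 in each fit with 1 array left out. Where these 4 comparisons called 0, between 528 and 1959 genes had an unadjusted p under 0.05. The correlation of members passed in 7 pairs as deposited, against 0. Centring, array brightness in the model and leaving out the 2 dimmest arrays were chosen after seeing the data, and the cause of these shifts was not tested.

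Of 385 values of members under 11 other settings, 357 kept their direction and either their side of the threshold or, for the untested grandpaternal and interaction values of Sdhaf1 and Smim20, moved by less than the SD within groups. In the average neither of these genes was called in 7 of the 11 settings. Sdhaf1 and Smim20 kept a positive grandpaternal difference in all of them, from 0.33 to 0.52 and from 0.33 to 0.45 in the average. Nothing is read from that sign, because both were chosen for a rise in these same arrays. Small differences changed sign. As deposited, the averaged grandpaternal differences became 0.039 for Sdhaf2, 0.087 for Sdhaf3, 0.087 for Cox14 and 0.090 for Coa3. Those at own high-fat diet became 0.20 for Sdhaf3 and 0.18 for Coa3, that of Sdhaf3 at own chow diet -0.030, and the interactions 0.23 for Sdhaf3 and 0.18 for Coa3. With the well column the average was 0.012 for Sdhaf3, and the difference at own high-fat diet -0.0087 for Sdhaf2 and -0.044 for Cox14. With centred arrays the averages were 0.020 for Sdhaf3, 0.020 for Cox14 and 0.024 for Coa3, with 0.034 for Sdhaf3 and 0.0097 for Coa3 at own high-fat diet and an interaction of 0.028 for Sdhaf3. With the array median Sdhaf2 was -0.029 at own high-fat diet, and without the 2 dimmest arrays Coa3 averaged 0.022. With 1 array left out the averages ranged from -0.046 to 0.0026 for Sdhaf2, -0.031 to 0.051 for Sdhaf3, -0.038 to 0.045 for Cox14 and -0.047 to 0.036 for Coa3. At own high-fat diet they ranged from -0.0019 to 0.044 for Sdhaf2, -0.10 to 0.063 for Sdhaf3, -0.028 to 0.14 for Cox14 and -0.15 to 0.018 for Coa3, and at own chow diet from -0.017 to 0.12 for Sco1. Own-diet differences ranged from -0.026 to 0.088 for Smim20, -0.074 to 0.0090 for Cox14 and -0.012 to 0.058 for Sco1, and the interaction of Sdhaf3 from -0.14 to 0.024.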
